A study of Mus musculus with 7 samples.

Results

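The genes described are those of the mouse mitochondrial genome, taken as all rows of the deposited expression table whose symbol begins with mt-. They came to 32 of 35641 genes: 13 protein genes, 2 ribosomal RNA (rRNA) genes and 17 transfer RNA (tRNA) genes. The rule uses the symbol and no measured value, though it was set with earlier results of these data known. The GENCODE M21 annotation (assembly GRCm38) lists 37 genes on the mitochondrial chromosome, and the other 5, all of them tRNA genes (mt-Tf, mt-Td, mt-Tk, mt-Tg and mt-Tr), are not analysed here.

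RNA was sequenced in bulk from cells sorted out of the lungs of female C57BL6 mice. The sort gate, per the labels, took CD45+, CD11b+, Ly6G+ cells with low Ly6C, the surface profile of neutrophils. The groups are HF, with 4 libraries (HF1 to HF4), and LF, with 3 libraries (LF6, LF7 and LF8). The labels do not spell out HF or LF and give no age, genotype or agent for either group, and the title of the series names obesity. In these bulk libraries, fewer cells of a type and less RNA per cell cannot be told apart.

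The marker genes went against 1 group's label. The summed normalized counts of 8 neutrophil markers lay between 351557 and 431732 in the HF libraries and between 6379 and 6433 in the libraries labelled LF. Ly6g, the gene of the sorted surface protein, had 1301 to 4944 normalized counts in HF against 0 to 8.22 in the libraries labelled LF. The sum of 6 monocyte markers ran the other way, at 14801 to 21156 in HF against 126686 to 137915 in the libraries labelled LF. All 8 neutrophil markers were called higher and all 6 monocyte markers lower in HF. The group label and this difference in cell markers cannot be told apart in any comparison that follows, and their parts in the differences of the mitochondrial genes were not tested.

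The mitochondrial genome is a small circle whose protein genes all encode subunits of the respiratory chain and of ATP synthase. Each strand is transcribed as a long precursor that is cut into single RNAs, often at the tRNAs that lie between the other genes, so that the final level of each RNA also depends on its processing and decay. The heavy-strand transcript carries both rRNAs and most protein genes, and the light-strand transcript carries mt-Nd6 and several tRNAs. Mature neutrophils are known for few mitochondria and a reliance on glycolysis. Mitochondrial sequence has also been copied into the nuclear chromosomes, and reads from such near-identical copies can be assigned to either place.

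The first set of sequences shows the 4 tRNA genes abundant enough to be tested, with 10 normalized counts or more on average. They are given 5′ to 3′ on the strand of the tRNA, from GENCODE M21, with the anticodon in capitals. It was located as the reverse complement of a codon of the amino acid in the middle of the tRNA. The first 3 lie on the light strand and the last on the heavy strand.
mt-Tc (cysteine, chrM:5192-5257, minus strand): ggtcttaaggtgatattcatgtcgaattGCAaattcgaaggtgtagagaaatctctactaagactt
mt-Tn (asparagine, chrM:5089-5159, minus strand): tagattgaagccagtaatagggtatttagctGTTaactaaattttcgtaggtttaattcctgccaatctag
mt-Tp (proline, chrM:15356-15422, minus strand): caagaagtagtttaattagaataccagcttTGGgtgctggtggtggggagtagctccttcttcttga
mt-Tm (methionine, chrM:3845-3913, plus strand): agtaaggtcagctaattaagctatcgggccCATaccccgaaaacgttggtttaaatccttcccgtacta

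The second set shows why some protein genes are hard to count: the first 90 bases of 2 mitochondrial genes, each above the same stretch of an annotated nuclear copy. Capitals mark the bases that differ within a pair. The mt-Co2 stretch and its copy Gm28661 on chromosome 1 differ at 0 of these bases, and the mt-Co1 stretch and its copy Gm13340 on chromosome 2 differ at 3.
mt-Co2 (GRCm38 chrM:7013-7102, plus strand): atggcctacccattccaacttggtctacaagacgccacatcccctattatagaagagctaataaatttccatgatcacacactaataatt
Gm28661 (GRCm38 chr1:24615476-24615565, minus strand): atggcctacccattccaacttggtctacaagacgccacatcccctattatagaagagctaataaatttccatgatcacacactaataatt
mt-Co1 (GRCm38 chrM:5328-5417, plus strand): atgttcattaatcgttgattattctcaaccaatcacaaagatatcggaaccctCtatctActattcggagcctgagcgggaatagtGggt
Gm13340 (GRCm38 chr2:22589558-22589647, minus strand): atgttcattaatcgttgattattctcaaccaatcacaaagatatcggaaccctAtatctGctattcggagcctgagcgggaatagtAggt

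Reads on mitochondrial genes were a small part of every library and a smaller part in HF. They took 0.451%, 0.486%, 0.368% and 0.371% of gene reads in HF1 to HF4 (0.419% ± 0.059, SD, n = 4) and 0.617%, 0.711% and 0.586% in LF6 to LF8 (0.638% ± 0.065, SD, n = 3). The groups did not overlap. The exact two-sided permutation test of 4 against 3 libraries gave p = 0.0571, which is the smallest p this design allows, and 0.0762 after Benjamini-Hochberg adjustment over 4 shares. The 4 and 3 mice are the only replicates, and the libraries held 13943173 to 16599658 gene reads in HF against 16974428 to 18983351 in the libraries labelled LF.

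The rRNA part and the protein part of these reads behaved differently. The 2 rRNA genes took 0.203%, 0.221%, 0.217% and 0.204% of gene reads in HF1 to HF4 and 0.195%, 0.223% and 0.162% in LF6 to LF8, so the groups overlapped (exact permutation p = 0.343). The 13 protein genes took 0.247%, 0.265%, 0.151% and 0.167% in HF1 to HF4 and 0.420%, 0.486% and 0.422% in LF6 to LF8. Every HF library lay below every library labelled LF, with a mean of 0.207% against 0.443%, and HF3 and HF4 lay below HF1 and HF2. The tRNA genes together took 0.000375% in HF against 0.00151% in the libraries labelled LF on average. There were 0.823, 0.836, 1.43 and 1.23 rRNA reads per protein-gene read in HF1 to HF4, and 0.465, 0.458 and 0.384 in LF6 to LF8. This ratio uses no scaling between libraries, and its mean was 2.48 times as high in HF (1.08 ± 0.30 against 0.436 ± 0.045, SD, n = 4 and n = 3; exact permutation p = 0.0571, adjusted 0.114 over 16 make-up values).

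**Figure D1:**
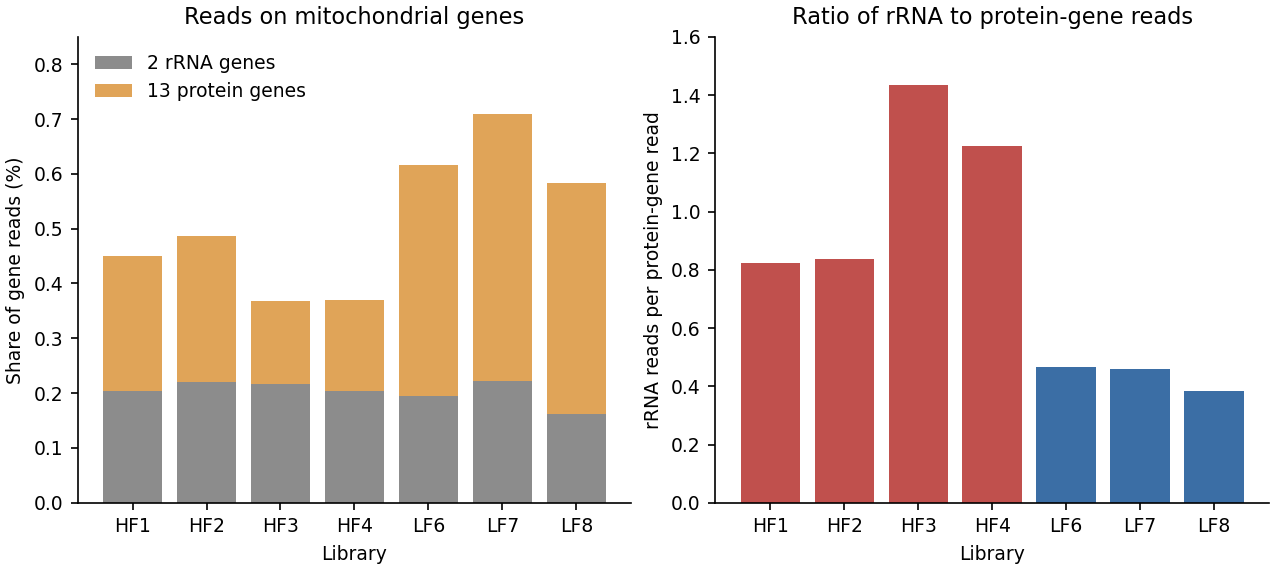
Share of gene reads on the 2 rRNA genes and 13 protein genes of the mitochondrial genome by library, in percent (left), and the number of rRNA reads per protein-gene read (right, HF in red, libraries labelled LF in blue). The grey rRNA part runs from 0.162% (LF8) to 0.223% (LF7) with the groups overlapping, and the protein part is lower in the 4 HF libraries. The ratio runs from 0.823 to 1.43 in HF against 0.384 to 0.465 in the libraries labelled LF.

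For single genes, normalized counts were compared as log2(value + 1) with limma, p-values were adjusted over all 14936 genes with a mean of at least 10, and genes with an adjusted p under 0.05 were called. Of the 32 mitochondrial genes, 18 passed that minimum: 12 protein genes, both rRNA genes and 4 tRNA genes. Among these 18, 2 were called higher in HF, where 26.2% of all tested genes were, and 10 were called lower, where 28.7% of all tested genes were. The other 6 were not called. The median log2 difference, HF minus LF, was -0.65 over the 18 genes and -0.16 over all genes tested. Among all 32 genes, 2 had every HF library above every library labelled LF and 14 had every HF library below. Of the 18 tested genes these were 2 and 10, and over all tested genes the shares were 28.4% and 33.7%. In the authors' deposited table, 23 of the 32 genes carry an adjusted p, and the 12 genes under 0.05 are the same 12 genes, 2 higher and 10 lower.

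The scale matters for these levels. The authors' normalized counts summed over all genes to a mean 1.43 times as high in HF as in the libraries labelled LF. Setting all library totals equal moved the median difference of all genes by -0.51 on the log2 scale and left 30.0% of the calls over all genes on the higher side, against 47.7% with the authors' scaling. With equal totals, 0 of the 18 tested mitochondrial genes were called higher and 13 lower. On that scale 8991 of all 14936 tested genes were called in either direction. Leaving out single LF libraries lowered the number of genes called lower from 10 to 5 without LF6 and to 3 without LF7 or LF8. mt-Co1, mt-Nd1 and mt-Nd5 were called lower under all 21 alternatives.

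Both rRNA genes, whose RNAs form the core of the mitochondrial ribosome, had higher normalized counts in HF on the authors' scale, though not with quantile normalization. mt-Rnr2, the large-subunit 16S rRNA (chrM:1094-2675), had 32101, 33583, 34487 and 34023 normalized counts in HF1 to HF4 and 21579, 23919 and 17689 in LF6 to LF8. It was the most abundant mitochondrial RNA per kilobase in HF, at 21206 against 13314 in the libraries labelled LF, where mt-Co1 stood higher at 14284 per kilobase. mt-Rnr1, the small-subunit 12S rRNA (chrM:70-1024), had 4963, 6079, 5819 and 5844 normalized counts in HF1 to HF4 and 3986, 4487 and 3399 in LF6 to LF8. For both genes the lowest HF library lay above the highest LF library. The log2 difference was 0.68 ± 0.09 (SE, adjusted p = 0.00048, limma) for mt-Rnr2 and 0.53 ± 0.11 (SE, adjusted p = 0.0049, limma) for mt-Rnr1.

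The direction of the rRNA genes rests on the scaling. With equal library totals the log2 differences were 0.16 for mt-Rnr2 (adjusted p = 0.18, limma) and 0.01 for mt-Rnr1 (adjusted p = 0.97, limma), and with quantile normalization both were negative, at -0.35 and -0.17, and mt-Rnr2 was called lower in HF (adjusted p = 0.034, limma). The number of mt-Rnr2 reads per mt-Rnr1 read, which needs no scaling, was 6.47, 5.52, 5.93 and 5.82 in HF1 to HF4 and 5.41, 5.33 and 5.20 in LF6 to LF8. The groups did not overlap, but the lowest HF value and the highest LF value were close (exact permutation p = 0.0571, adjusted 0.114).

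**Figure D2:**
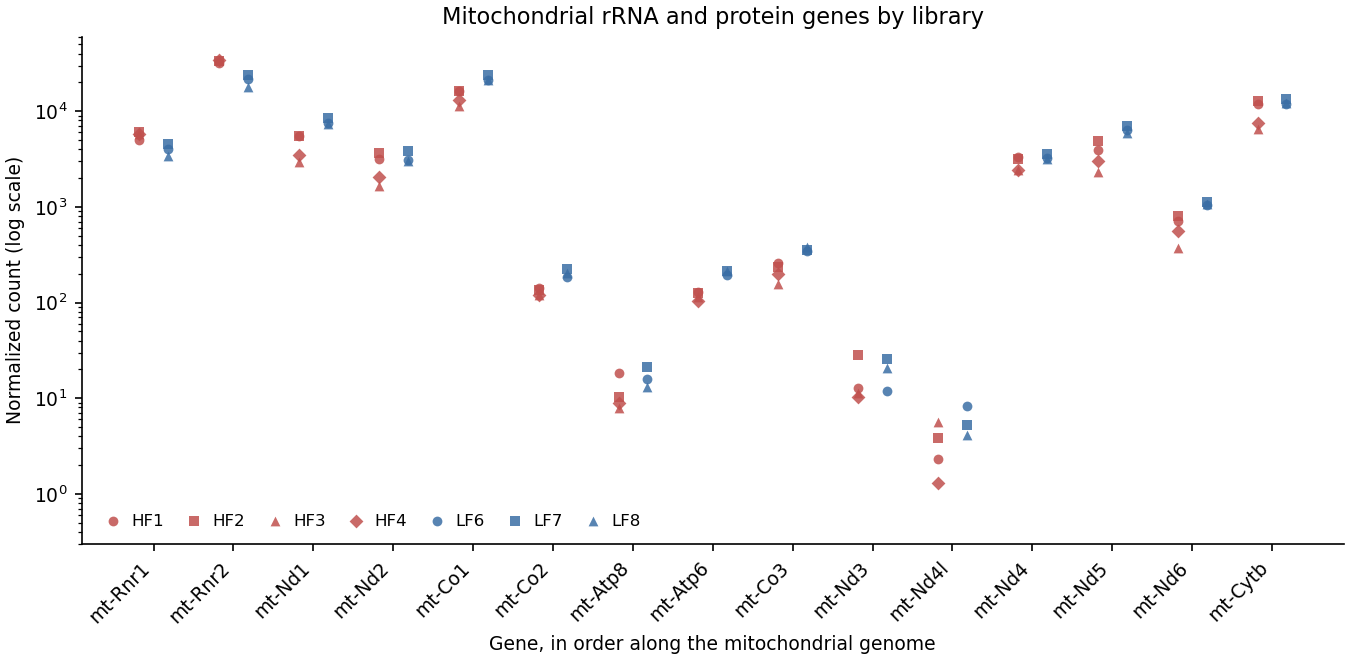
Normalized counts (log scale) of the 2 rRNA genes and 13 protein genes in each library, in the order of the genes along the mitochondrial genome; red symbols are HF1 to HF4 and blue symbols LF6 to LF8. On the authors' scale the HF libraries lie above the others for both rRNA genes (a direction that quantile normalization reverses) and below them for 7 protein genes, and mt-Atp8, mt-Nd3 and mt-Nd4l lie far below their neighbours.

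Of the 13 protein genes, 12 were tested: 7 were called lower in HF, 0 higher and 5 neither. No protein gene was higher at an unadjusted p under 0.05 in limma, or called higher by edgeR or DESeq2. Their median log2 difference was -0.65. The spread among HF libraries was wider than among the libraries labelled LF: the 13 genes together had 45061, 47446, 28107 and 32504 normalized counts in HF1 to HF4 and 54949, 61971 and 54862 in LF6 to LF8.

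Complex I, the NADH dehydrogenase that feeds electrons into the chain, takes 7 subunits from the mitochondrial genome, and 3 of their genes were lower in HF. mt-Nd1 (chrM:2751-3707), whose protein sits in the membrane arm next to the quinone site, had 5471, 5455, 2919 and 3473 normalized counts in HF1 to HF4 and 7552, 8415 and 7352 in LF6 to LF8. mt-Nd5 (chrM:11742-13565), one of the antiporter-like membrane subunits, had 3916, 4906, 2323 and 2983 in HF1 to HF4 and 6324, 7017 and 5948 in LF6 to LF8. The groups were apart for both genes, with HF3 the lowest library. The log2 differences were -0.90 ± 0.23 for mt-Nd1 and -0.92 ± 0.23 for mt-Nd5 (SE, adjusted p = 0.011 for each, limma).

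mt-Nd6 (chrM:13552-14070) is the only protein gene of the light strand. It had 718, 796, 371 and 566 normalized counts in HF1 to HF4 and 1041, 1129 and 1064 in LF6 to LF8. All HF libraries were below the libraries labelled LF, at a log2 difference of -0.87 ± 0.25 (SE, adjusted p = 0.019, limma). Its adjusted p was 0.052, 0.065 and 0.055 with LF6, LF7 or LF8 left out (limma). Per 100 reads of the 12 heavy-strand protein genes there were 1.61 ± 0.19 mt-Nd6 reads in HF against 1.92 ± 0.06 in LF6 to LF8 (SD, n = 4 and n = 3; exact permutation p = 0.0571, adjusted 0.114), with no overlap. The sources used here do not say whether counting used strand, and reads from the opposite strand of mt-Nd6 cannot be told apart from its own.

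The antiporter-like subunit genes mt-Nd2 and mt-Nd4 were not called. mt-Nd4 (chrM:10167-11544) had 3285, 3172, 2440 and 2414 normalized counts in HF1 to HF4 and 3231, 3565 and 3195 in LF6 to LF8, a log2 difference of -0.25 ± 0.13 (SE, adjusted p = 0.15, limma). mt-Nd2 (chrM:3914-4951) had 3193, 3614, 1646 and 2055 in HF1 to HF4 and 3076, 3802 and 3043 in LF6 to LF8, a log2 difference of -0.40 ± 0.27 (SE, adjusted p = 0.24, limma). In both genes HF1 or HF2 reached into the range of the libraries labelled LF, while HF3 and HF4 were below it. With equal library totals both were called lower, at -0.77 for mt-Nd4 and -0.92 for mt-Nd2.

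The 2 short complex I genes were near the detection limit. mt-Nd3 (chrM:9459-9806) had 12.7, 28.3, 11.2 and 10.3 normalized counts in HF1 to HF4 and 11.99, 25.5 and 20.5 in LF6 to LF8 (log2 difference -0.35 ± 0.60, SE, adjusted p = 0.64, limma). mt-Nd4l (chrM:9877-10173) had 11 reads over the HF libraries and 24 over the libraries labelled LF, and was not tested. Both lie almost wholly in sequence shared with a nuclear copy, described below.

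Complex III passes electrons on to cytochrome c, and mt-Cytb (chrM:14145-15288) encodes cytochrome b, its mitochondrially made subunit. It had 11766, 12870, 6552 and 7449 normalized counts in HF1 to HF4 and 11769, 13315 and 12293 in LF6 to LF8. HF1 and HF2 were at the level of the libraries labelled LF, and HF3 and HF4 were lower than all of them. The log2 difference was -0.42 ± 0.23 (SE, adjusted p = 0.15, limma), and it was called lower with equal library totals, at -0.94 (adjusted p = 0.012, limma).

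All 3 complex IV genes, which encode the catalytic core of cytochrome c oxidase, were lower in HF. mt-Co1 (chrM:5328-6872), the subunit with the site of oxygen reduction, had 16147, 16093, 11442 and 13121 normalized counts in HF1 to HF4 and 21194, 23876 and 21136 in LF6 to LF8. It was the most abundant protein gene per kilobase in both groups, at 9191 in HF against 14284 in the libraries labelled LF, and its log2 difference was -0.65 ± 0.13 (SE, adjusted p = 0.0030, limma). mt-Co2 (chrM:7013-7696), which takes up electrons from cytochrome c, had 142, 136, 119 and 121 in HF1 to HF4 and 184, 226 and 204 in LF6 to LF8. mt-Co3 (chrM:8607-9390), a structural core subunit, had 258, 235, 156 and 199 in HF1 to HF4 and 347, 357 and 376 in LF6 to LF8. No HF library reached the range of the libraries labelled LF in any of the 3 genes. The log2 differences of mt-Co2 and mt-Co3 were -0.66 ± 0.21 and -0.79 ± 0.22 (SE, adjusted p = 0.029 and 0.016, limma). Both genes lie almost wholly in sequence shared with nuclear copies, described below, and mt-Co1 lies partly in such sequence. mt-Co2 lost its call with any LF library left out and with no filter on low values (adjusted p = 0.066, limma), mt-Co3 without LF7 or LF8, and both with quantile normalization (-0.10 and -0.27).

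Complex V, ATP synthase, has 2 mitochondrially encoded subunits of its proton channel part. mt-Atp6 (chrM:7927-8607) had 130, 126, 114 and 104 normalized counts in HF1 to HF4 and 196, 215 and 212 in LF6 to LF8, with no overlap (log2 difference -0.81 ± 0.21, SE, adjusted p = 0.012, limma). It lost its call without LF7 (adjusted p = 0.060), without LF8 (adjusted p = 0.057, both limma) and with quantile normalization (-0.26). mt-Atp6 lies almost wholly in sequence shared with a nuclear copy, described below. mt-Atp8 (chrM:7766-7969), whose annotated end overlaps the start of mt-Atp6, had 18.4, 10.3, 7.85 and 8.98 in HF1 to HF4 and 15.7, 21.02 and 13.01 in LF6 to LF8. The groups overlapped, and the difference was not called (-0.55 ± 0.58, SE, adjusted p = 0.44, limma).

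**Figure D3:**
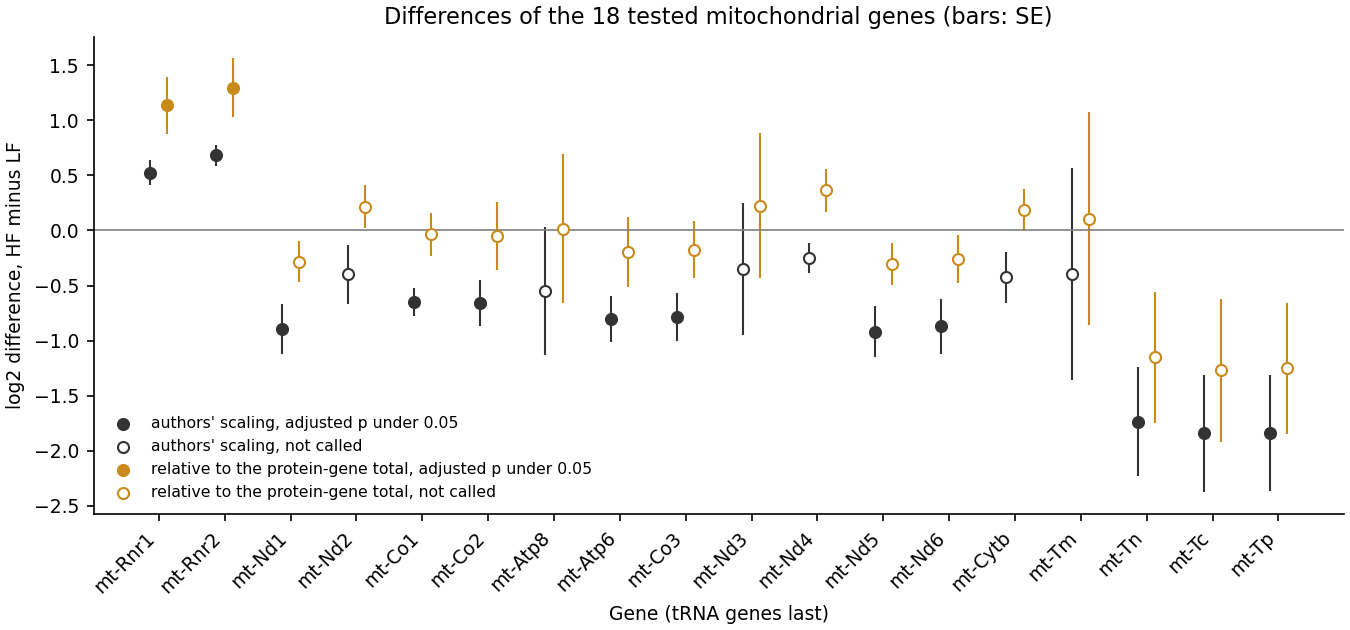
log2 difference, HF minus LF, of the 18 tested mitochondrial genes with bars of 1 SE, for the authors' scaling (black) and relative to the library's protein-gene total (orange); filled symbols have an adjusted p under 0.05. With the authors' scaling 2 rRNA genes are called higher (negative with quantile normalization) and 10 other genes lower. Relative to the protein-gene total, of which the protein genes are themselves parts, only the rRNA genes are called, at 1.14 and 1.29.

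tRNA genes had few reads, 1035 over all 17 genes and 7 libraries. Of the 4 tested, the 3 light-strand genes whose sequences are given above were lower in HF and the heavy-strand mt-Tm was not called. mt-Tp, next to the control region, had 17.3, 18, 8.97 and 34.6 normalized counts in HF1 to HF4 and 59.2, 84.1 and 58.2 in LF6 to LF8. mt-Tn had 20.8, 10.3, 12.3 and 8.98 in HF1 to HF4 and 37.5, 50.3 and 44.5 in LF6 to LF8. mt-Tc had 11.5, 7.71, 5.61 and 12.8 in HF1 to HF4 and 36.0, 39.0 and 30.1 in LF6 to LF8. The groups were apart for these 3 genes. Their log2 differences were -1.84 ± 0.53, -1.74 ± 0.50 and -1.84 ± 0.53 (SE, adjusted p = 0.019, 0.018 and 0.019, limma), and all 3 lost their calls with any LF library left out (adjusted p = 0.057 to 0.091, limma). mt-Tn and mt-Tc lie between mt-Nd2 and mt-Co1 and face the opposite strand, and without strand in the counting, reads of the heavy-strand transcript across them cannot be told apart from tRNA reads.

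mt-Tm, which lies directly before mt-Nd2, varied most: it had 24.2, 16.7, 4.48 and 1.28 normalized counts in HF1 to HF4 and 9.74, 7.51 and 15.1 in LF6 to LF8. HF1 and HF2 were above and HF3 and HF4 below the libraries labelled LF, and the log2 difference was -0.39 ± 0.96 (SE, adjusted p = 0.74, limma) and positive in edgeR and DESeq2. Over all tested genes, 33.7% had every HF library below every library labelled LF. Of the 13 tRNA genes that were not tested, 4 did, a share near that of all tested genes. They were mt-Tl1, which lies between mt-Rnr2 and mt-Nd1 (6 reads in HF against 39 in the libraries labelled LF), mt-Tt (4 and 33), mt-Tw (6 and 24) and mt-Ta (5 and 21). Another 6 tRNA genes had 10 or fewer reads in all, among them mt-Tv between the 2 rRNA genes, with 0 reads in HF against 2 in the libraries labelled LF.

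The make-up of the protein-gene reads was also compared, since it does not depend on how libraries are scaled to each other. mt-Co1 took 35.8%, 33.9%, 40.7% and 40.4% of these reads in HF1 to HF4 and 38.6%, 38.5% and 38.5% in LF6 to LF8, and the groups overlapped. mt-Nd1 took 12.1%, 11.5%, 10.4% and 10.7% in HF1 to HF4 and 13.7%, 13.6% and 13.4% in LF6 to LF8, and mt-Nd5 took a mean of 9.12% in HF against 11.2% in the libraries labelled LF. Both had the smaller share in every HF library. In the other direction, mt-Nd4 took 7.29%, 6.69%, 8.68% and 7.43% in HF1 to HF4 and 5.88%, 5.75% and 5.82% in LF6 to LF8, and mt-Cytb took 24.9% against 21.8% on average. These 4 genes and mt-Nd6 (1.58% against 1.89%) were the 5 of 13 whose shares did not overlap between the groups. Each reached p = 0.0571 in the exact permutation test and 0.114 after adjustment over 16 values, so no share passed 0.05, which this design does not allow.

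A second fit divided every value of a library by that library's protein-gene total. Relative to it, both rRNA genes were called higher in HF, at log2 differences of 1.29 ± 0.27 for mt-Rnr2 and 1.14 ± 0.26 for mt-Rnr1 (SE, adjusted p = 0.0034 and 0.0057, limma), where 31.9% of all tested genes were called higher and their median difference was 0.43. With any single library left out, both rRNA genes were still called. No mitochondrial gene was lower in this fit, at an adjusted or an unadjusted p under 0.05 in limma. Over all tested genes 13.7% were called lower. The 12 tested protein genes are parts of the total they were divided by, so as a set they were held near 0 (median -0.04). The lack of lower calls among these 12 is therefore no result about their levels. mt-Tp was called lower when HF4, its highest HF library, was left out (-1.63, adjusted p = 0.031, limma). Among the genes not called, the differences ran from -1.27 ± 0.65 for mt-Tc (SE, adjusted p = 0.14, limma) to 0.36 ± 0.19 for mt-Nd4 (SE, adjusted p = 0.15, limma). Dividing instead by the total of all mitochondrial genes, rRNA included, gave 9 lower calls.

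Most protein genes with a low level per kilobase share their sequence with nuclear copies. In GENCODE M21, 7 pseudogenes lie within chr1:24611535-24616197 (GRCm38), a stretch of 4663 bases, on the minus strand and in the order of the mitochondrial genes from mt-Co1 to mt-Nd4. The copies Gm28661, Gm10925, Gm28437, Gm28438, Gm10222 and Gm28439 are identical to mt-Co2, mt-Atp6, mt-Co3, mt-Nd3, mt-Nd4l and part of mt-Nd4 over the whole aligned length (294 to 876 bases), and Gm29216 differs from mt-Co1 at 1 of 483 bases. Gaps between neighbouring copies (140 bases between Gm29216 and Gm28661, and 140 between mt-Co1 and mt-Co2) were also nearly those of the mitochondrial genes. A further pair on chromosome 2 is less alike, with 97.6% identity of Gm13340 to mt-Co1 and 95.9% of Gm13341 to mt-Co2.

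A window of 50 bases found in a transcript of another gene was taken as shared. mt-Co2, mt-Co3, mt-Atp6, mt-Nd4l and mt-Nd3 had 97.99% to 100% of their windows shared, mt-Nd4 had 62.2% and mt-Co1 51.1%, and the other 6 protein genes had 0% to 8.19%. The 5 shared genes stood at 10.99 to 270 normalized counts per kilobase in HF against 19.8 to 459 in the libraries labelled LF. The 6 others stood at 55.8 to 8444 in HF against 81.3 to 10891 in the libraries labelled LF. The low end of both ranges was mt-Atp8, at 0% shared, but only annotated transcripts were searched. Between Gm28661 and Gm10925, the chromosome 1 copies of mt-Co2 and mt-Atp6, lie 233 bases, against 230 between the mitochondrial genes. Most of mt-Atp8 lies in that mitochondrial stretch. The matching bases on chromosome 1 were not searched, so 0% does not show that mt-Atp8 has no copy there. mt-Co2 had 189 normalized counts per kilobase in HF, while mt-Co1, which it joins in the same enzyme and the same precursor RNA, had 9191. This is a description over 13 genes that share libraries and a transcript, and the treatment of reads with several matches is one point the sources used here do not give. The values of these 5 genes are therefore uncertain as levels. For mt-Nd4 and mt-Co1 the same uncertainty applies to the shared part of their sequence.

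**Figure D4:**
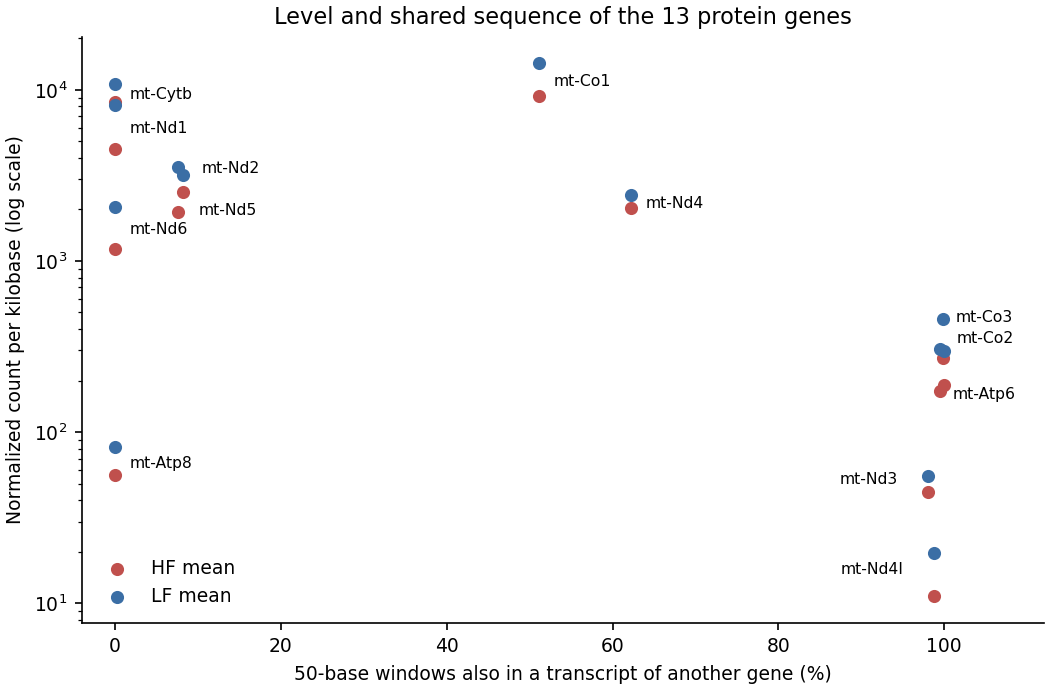
Mean normalized count per kilobase (log scale) of each mitochondrial protein gene in HF (red) and in the libraries labelled LF (blue) against the percentage of its 50-base windows that also occur in a transcript of another gene. The 5 genes at 97.99% to 100% lie between 10.99 and 459, and apart from mt-Atp8 the genes under 10% lie between 1181 and 10891.

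Reads were also listed under the copies themselves. For the fully shared genes the pseudogene held about as many counts as the mitochondrial gene or more: Gm28661 held 51.4% of the counts of its pair with mt-Co2 in HF against 46.6% in the libraries labelled LF, Gm10925 held 57.5% and 54.8% of the pair with mt-Atp6, and Gm28437 held 51.7% and 46.8% of the pair with mt-Co3. Gm28438 held 79.9% and 83.7% of the pair with mt-Nd3, and Gm10222 held 79.6% and 81.0% of the pair with mt-Nd4l. For genes with much unshared sequence the copy's part was small, at 1.003% and 1.06% for Gm13340 with mt-Co1. The list of nuclear copies held 10 genes, of which 0 were called higher and 3 lower (Gm10925, Gm13340 and Gm9794), where 26.2% and 28.7% of all tested genes were, so that the lower share was near that of all genes, with 0 higher and 4 lower at an unadjusted p under 0.05 (limma) and 0 higher in edgeR and DESeq2. With quantile normalization 0 of the 10 were lower. The third of these, Gm9794 on chromosome 6, aligned to mitochondrial sequence over only 15 bases and is not a copy. Adding each copy's counts to its mitochondrial gene left 10 genes lower and 2 higher, with mt-Co2 at -0.52 (adjusted p = 0.024), mt-Co3 at -0.65 (adjusted p = 0.014) and mt-Atp6 at -0.72 (adjusted p = 0.0064, all limma).

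Genes in the nucleus supply the rest of each respiratory complex. Of 76 nuclear subunit genes of complexes I, III, IV and V, 46 were called lower and 7 higher, against 28.7% lower and 26.2% higher over all tested genes, with a median log2 difference of -0.52 (-0.16 over all tested genes). In complex I these were 23 lower and 4 higher of 37, with Ndufa11, an accessory subunit, at 191 ± 17 normalized counts in HF against 933 ± 64 in the libraries labelled LF (SD), a log2 difference of -2.28 (adjusted p = 7.6e-06, limma). In complex III 7 of 9 were lower and 0 higher (0 also at an unadjusted p under 0.05 and in edgeR and DESeq2), among them Cyc1, which encodes cytochrome c1, at -1.68. In complex IV 5 of 12 were lower and 1 higher: Cox7c was at -0.92 and Cox8a at 0.81. In complex V 11 of 18 were lower and 2 higher, with Atp5a1, the alpha subunit of the catalytic head, at -1.03. In complex II, which has no mitochondrially encoded subunit, 2 of 4 were lower and 1 higher. With equal library totals the lower calls numbered 32, 9, 10 and 16 in complexes I, III, IV and V. On that scale 8991 of all 14936 tested genes were called, 30.0% of them higher.

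**Figure D5:**
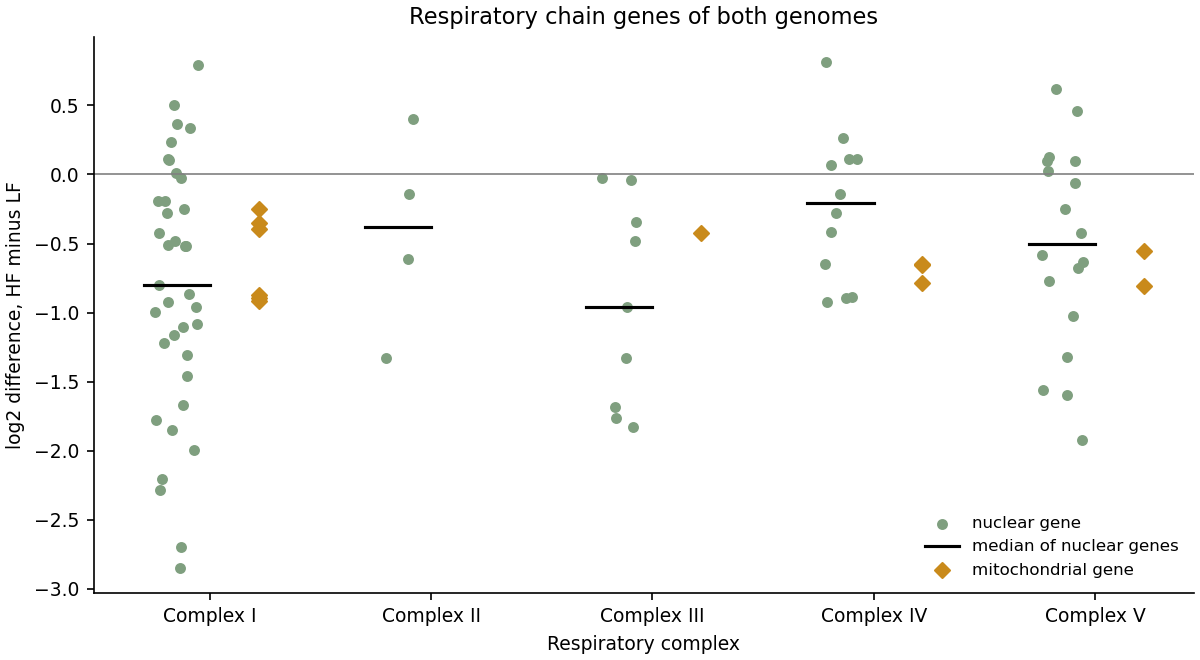
log2 difference, HF minus LF, of the tested nuclear subunit genes of each respiratory complex (green points, black line at their median) and of the tested mitochondrial genes of the same complex (orange diamonds). The nuclear medians run from -0.96 in complex III to -0.21 in complex IV, and all 12 mitochondrial genes are below 0.

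The genes that transcribe and maintain mitochondrial DNA held calls in both directions. Of 23 tested, 10 were called lower and 6 higher, where 28.7% and 26.2% of all tested genes were, so that the higher share was that of all genes. The median log2 difference was -0.89. With equal library totals 14 were called lower and 3 higher. On that scale 8991 of all 14936 tested genes were called, 30.0% of them higher. The values that follow are on the authors' scale. Tfam, which packs the mitochondrial genome and starts its transcription, had 209, 161, 137 and 145 normalized counts in HF1 to HF4 and 550, 513 and 536 in LF6 to LF8, a log2 difference of -1.72 ± 0.20 (SE, adjusted p = 0.00018, limma). Mrpl12, a ribosomal protein, was at -2.61 and the mitochondrial polymerase gene Polrmt at -2.998. Slc25a33, a carrier of pyrimidine nucleotides into mitochondria, was higher, with 1031 to 1590 normalized counts in HF against 47.2 to 72.8 in the libraries labelled LF (4.34 ± 0.23, SE, adjusted p = 2.0e-06, limma). Tk2, the mitochondrial thymidine kinase, was higher as well, at 1.55.

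Genes for mitochondrial RNA processing and decay held 23 lower calls among 35 tested and 1 higher call (Tbrg4), where 28.7% and 26.2% of all tested genes were called. Their median log2 difference was -1.50. Pnpt1, the polynucleotide phosphorylase of mitochondrial RNA decay, had 252, 181, 186 and 227 normalized counts in HF1 to HF4 and 1001, 1012 and 1001 in LF6 to LF8 (-2.25 ± 0.17, SE, adjusted p = 1.5e-05, limma). Rexo2, an exonuclease of short RNAs, was at -1.97, and Lrpprc, which binds and stabilises mitochondrial mRNAs, at -3.65. Angel2, the most abundant of the list, was not called (1634 ± 229 in HF against 1294 ± 158 in the libraries labelled LF, SD; adjusted p = 0.078, limma). Polrmt, Lrpprc and Tbrg4, and further below Qars and Xist, are named outside the rule for named genes, after their values were seen. A list of 20 genes for aminoacyl-tRNA synthetases, which load the tRNAs, held 13 lower and 0 higher calls. The shares of all tested genes were the same 28.7% and 26.2%, and the median of the list was -1.66. At an unadjusted p under 0.05 in limma 16 were lower and 0 higher, with 8 and 0 in edgeR and 14 and 0 in DESeq2. Of all 14936 tested genes, edgeR with the authors' scaling called 7624 (51.4% of them higher) and DESeq2 8472 (51.7% higher). No such count over all genes is given for the unadjusted p. The list was drawn up for mitochondria but also holds Gars, Kars and Qars, which are not limited to them. Gars and Kars were among the lower calls, and Qars was not called. Rars2, for arginine, was at -1.49, and Lars2, for leucine, was not called (0.23, adjusted p = 0.11, limma).

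Regulators of mitochondrial biogenesis and genes of mitophagy and dynamics also held calls in both directions. Of 12 regulators, 4 were higher and 2 lower, where 26.2% and 28.7% of all tested genes were. Nrf1, a transcription factor for nuclear genes of mitochondria, had 1673 to 2043 normalized counts in HF against 968 to 1093 in the libraries labelled LF (0.83, adjusted p = 0.00028, limma), and Gabpb1 was at 1.84. Of 18 mitophagy and dynamics genes, 8 were higher and 4 lower, beside the same shares of all tested genes. The mitophagy receptors Bnip3 and Optn were at 2.62 and 5.25, and Dnm1l, the fission GTPase, was at -2.58. The median log2 differences of the lists were 0.33 and 0.12. With equal library totals the regulators held 2 higher and 5 lower calls. The mitophagy and dynamics genes then held 2 higher and 7 lower calls. On that scale 8991 of all 14936 tested genes were called, 30.0% of them higher.

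Other features of the libraries also differed between the groups. The nuclear-retained RNAs Malat1 and Neat1 were higher in HF, with 22243 to 30008 against 8745 to 11020 and 37188 to 39281 against 6978 to 10374 normalized counts. In the whole list of nuclear-retained, small and other noncoding RNAs 2 of 7 tested were higher and 2 lower, about the 26.2% and 28.7% of all tested genes. The lower ones were Xist (-1.69, adjusted p = 0.0088, limma) and Snhg1 (-1.47, adjusted p = 0.0022, limma). The summed level of 6 platelet markers was 732 to 3636 in HF, highest in HF3, and 156 to 346 in the libraries labelled LF, and that of 6 erythroid markers was 5308 to 10865 against 2861 to 4246. Epithelial markers (704 to 2744 against 261 to 821), endothelial markers (393 to 747 against 503 to 643), T cell markers (887 to 1952 against 746 to 1721) and B cell markers (910 to 2989 against 991 to 1277) overlapped, and so did alveolar macrophage markers (9146 to 32863 against 23690 to 26114). Of these last 7 genes, 5 were tested: Siglecf was called higher in HF (4.86), Ear2 and Mrc1 lower (-2.11 and -2.87) and 2 neither, and the scavenger receptor gene Marco had 0 reads in all HF libraries, LF7 and LF8. The part of these values in the differences of the mitochondrial genes was not tested. Within HF, HF3 and HF4 had the lower protein-gene shares, and of these HF3 had the highest platelet sum while HF4 was at 980, close to HF1 at 967.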

How the data were processed

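RNA was measured in 7 bulk libraries. Tools listed in the submitters' processing notes are DESeq2 1.20.0, featureCounts 1.6.3 and STAR 2.6.1b, without their roles. Genome build, strand setting and handling of reads with several matches: not given in the sources used here. The deposited values are normalized counts per gene (a signal), and all of them were whole multiples, within 0.01, of what 1 read is worth in a library, so reads were recovered. Further columns are, per the file headers, log2 fold changes of the authors, their p-values and a score for each test, and these enter the text only in sentences naming the authors' deposited table.

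Groups come from the labels. Columns LF6, LF7 and LF8 carry none of the labels' LF replicate numbers (1 to 3) and were taken as 3 unnumbered LF libraries. All 7 sample columns were used (0 unmapped). Recovered counts differed beyond sampling noise between all pairs of libraries within a group, and more so in HF. The median chi-square over genes was 12.2 to 16.2 between HF libraries and 2.29 to 3.01 between the libraries labelled LF. Genes with a read numbered 16743 (HF3) to 26409 (HF2) in HF and 22362 to 24212 in the libraries labelled LF. Nothing but the count of mice in the design text says how replicates were made, so the p-values reflect the spread among these 7 libraries alone.

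Tests used limma 3.58.1 (trend) in R 4.3.3 on log2(value + 1) over genes with a mean of at least 10, with Benjamini-Hochberg adjustment over all of them at 0.05. The fold changes are on that log2 scale and understate those of low genes. The alternatives included edgeR 4.0.16 and DESeq2 1.42.0 on recovered reads, other scalings, filters and pseudocounts, and each library left out. edgeR called 7624 genes against 8211 in limma. Single values per library were tested with exact two-sided permutation tests (scipy 1.17.1). Scripts were tested on simulated data. Sequences, lengths and coordinates come from GENCODE M21 transcripts by gene ID (35597 of 35641 IDs matched), aligned with Biopython 1.88.

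The members, gene lists and tests were chosen with earlier results of these data known. Named are all protein and rRNA genes, tRNA genes with a mean of at least 10 and the next 3 by reads, from each list the 3 lowest p and the highest mean (examples of these are given), and the nuclear copies. The lists cover mitochondrial transcription and DNA maintenance, RNA processing and decay, biogenesis, mitophagy and dynamics, and nuclear subunits of each respiratory complex. They also cover aminoacyl-tRNA synthetases, nuclear copies, nuclear-retained, small and other noncoding RNAs, and cell type markers.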

Additional observations from a re-analysis of the deposited data

Results flagged for a closer look

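Among 38 values screened in the 4 HF libraries, 1 had a library far from the others by Dixon's 95% criterion: mt-Nd3 had 28.3 normalized counts in HF2, against 10.3 to 12.7 in HF1, HF3 and HF4. Chance alone marks about 1 in 20 such groups, and the LF group of 3 was not screened.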

How the results depend on the processing

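No paired analysis was possible because the LF columns carry none of the replicate numbers of the labels. Genes called lower (10) numbered 3 to 10 with 1 library left out: 5 without LF6, 3 without LF7 and 3 without LF8. With 1 LF library fewer, 6465, 6489 and 6450 genes of the whole table were called, against 8211. Genes called higher (2) became 0 with equal library totals, equal nuclear totals, quantile normalization or scaling to the rRNA total (the last and the adding of copies were chosen after seeing the data). Relative to the protein-gene total, the lower calls (0) became 9 with the total of all mitochondrial genes as the reference, and were 0 to 1 with 1 library left out. The ratio of mt-Nd6 between the groups moved from 0.837 to 0.593 when taken as a share of all mitochondrial reads. Signs turned for mt-Rnr2 (-0.35, quantile, called lower in HF at adjusted p = 0.034, limma), for mt-Rnr1 (-0.17, quantile, and -0.13, rRNA total), for mt-Tm (0.11 in edgeR, 0.10 in edgeR with TMM, 0.13 in DESeq2, and -0.91 to 0.25 with 1 library left out, positive only without HF4) and for mt-Nd4 relative to all mitochondrial genes (-0.16). The causes were not tested. Lower calls numbered 9 without a filter, 7 under a filter at 50, and 13 for equal library totals, equal nuclear totals and the rRNA total alike. On the latter scales 8991, 8993 and 8773 genes of the whole table were called, with 30.0%, 29.9% and 25.4% of these calls higher. Genes under about 20 normalized counts (mt-Nd3, mt-Atp8, mt-Nd4l, most tRNAs) rest on few reads, and a missing call there does not show equal levels.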
